A study of Mus musculus with 15 samples.

Results

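The globin genes described here encode the chains of hemoglobin, the oxygen carrier of red cells. They are the α-like genes *Hba-x*, *Hba-a1*, *Hba-a2*, *Hbq1a* and *Hbq1b* and the β-like genes *Hbb-bh1*, *Hbb-y*, *Hbb-b1* and *Hbb-b2* of the mouse. The family was selected on measured values, the difference between Tie2-Ezh2-KO and WT libraries, so that comparison describes these genes and does not test them. Of the 9 genes named, 7 are among the 17454 genes with values, while *Hba-a1* and *Hba-a2* were not analysed here.

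The study measured RNA of erythro-myeloid progenitors (EMPs), yolk sac cells that give rise to red cells, macrophages and granulocytes. All E10.5 embryos were C57BL/6 and carried 2 floxed alleles, Ezh2fl/fl, whose recombination removes the SET domain, the catalytic part of the histone methyltransferase EZH2. Tie2-Ezh2-KO embryos (5 libraries) also carried Tie2-Cre, which is active from the endothelial stage on. Vav-Ezh2-KO embryos (5 libraries) carried Vav-iCre (Vav-Cre in the labels), which is active from the onset of the blood cell stage. Embryos without either Cre gave 3 Tie2-Ezh2-WT and 2 Vav-Ezh2-WT libraries, which as a set of 5 are called WT. The labels give 500 sorted cells a library and the study's methods give another number. The study compared both knockouts with WT to ask how the time of *Ezh2* loss bears on EMPs.

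Mouse globin genes lie in an α locus and a β locus, and each locus holds embryonic and adult genes that are used in turn during development. Primitive red cells of the early yolk sac make the embryonic chains ζ (*Hba-x*), εy (*Hbb-y*) and βh1 (*Hbb-bh1*) together with adult α chains. Definitive red cells make adult chains, and those that come from yolk sac EMPs are known for adult β chains with a low level of *Hbb-bh1*. The θ genes *Hbq1a* and *Hbq1b* lie in the α locus and have no known part in a main hemoglobin.

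Values are RPKM, reads on a gene scaled by the length of its model and by the total reads on genes. The reads behind the RPKM were recovered as whole numbers, within 1e-06, for all 16877 genes above 0 in a library. Total reads on genes ranged from 10407398 in Tie2-Ezh2-WT replicate 4 to 41025074 in Tie2-Ezh2-WT replicate 12, with a median of 16091836. The other WT libraries held 15811738 (Tie2-Ezh2-WT replicate 10), 14890780 (Vav-Ezh2-WT replicate 4) and 19957939 reads (Vav-Ezh2-WT replicate 6). The lowest and the highest depth were thus both in Tie2-Ezh2-WT. Tie2-Ezh2-KO replicates 7, 9, 11, 13 and 17 held 15934827, 15284308, 14818723, 26825709 and 16091836 reads. Vav-Ezh2-KO replicates 1, 9, 10, 26 and 28 held 28243857, 18418304, 16855049, 11506895 and 28714656 reads. For a gene model of 600 bases, the length of *Hba-x*, the limit of 3 reads that a count of 0 allows was between 0.122 and 0.48 RPKM. The libraries were amplified by PCR and hold no molecular identifiers, so limits and counting intervals cover counting error only. Values of a group are listed below in the order of these replicates, 4, 10 and 12 for Tie2-Ezh2-WT and 4 and 6 for Vav-Ezh2-WT.

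*Ezh2*, the targeted gene, was at 36.9, 39.5 and 30.1 RPKM in Tie2-Ezh2-WT and at 42.0 and 41.5 RPKM in Vav-Ezh2-WT. *Ezh2* values of Tie2-Ezh2-KO were 27.8, 26.2, 24.8, 29.5 and 26.5 RPKM. Those of Vav-Ezh2-KO were 33.7, 42.4, 37.8, 38.1 and 34.0 RPKM. All 5 Tie2-Ezh2-KO libraries were below all 5 WT libraries, and the Vav-Ezh2-KO libraries overlapped with WT. *Ezh2* fell by 0.48 on the log2(RPKM + 0.2) scale in Tie2-Ezh2-KO (standard error 0.12, limma adjusted p = 0.0418). This call was lost in 11 of 19 alternatives, with limma adjusted p from 0.0134 to 0.344. Leaving out Tie2-Ezh2-WT replicate 4 (limma adjusted p = 0.0760) or 10 (0.114), Vav-Ezh2-WT replicate 4 (0.126) or 6 (0.111), or Tie2-Ezh2-KO replicate 7 (0.0802), 11 (0.0976) or 17 (0.0939) lost it. Without the 2 libraries of highest visceral endoderm markers, described below, the difference was -0.50 and the call was also lost (limma adjusted p = 0.137). In Vav-Ezh2-KO the difference was -0.02 (standard error 0.11, limma adjusted p = 0.969). With each knockout against WT of its own Cre line, the difference between the 2 effects was -0.22 (standard error 0.18, limma adjusted p = 0.972). These values cover the whole gene and do not separate the deleted exons.

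All 10 genes of the EMP sort and identity list had values above 0.2 RPKM in at least 1 of the 15 libraries, which was not examined group by group. Their summed level was 632 ± 48.6 RPKM in WT, 603 ± 69.4 in Tie2-Ezh2-KO and 589 ± 56.9 in Vav-Ezh2-KO (SD, n = 5 each). The most abundant of them was *Sfpi1*, which encodes the transcription factor PU.1. The summed level of these genes was between 504 and 697 RPKM in every library. Of the 10 genes, 8 had a lower mean in Tie2-Ezh2-KO than in WT and 7 in Vav-Ezh2-KO. Differences over the list ran from -0.80 to 0.30 in Tie2-Ezh2-KO, and the gene of the largest fall is not reported here. *Fcgr3* differed by -0.47 in Tie2-Ezh2-KO (standard error 0.15, limma adjusted p = 0.131), with 4 of 5 libraries below all WT libraries. *Cd34* differed by -0.54 in Vav-Ezh2-KO (standard error 0.17, limma adjusted p = 0.542), also with 4 of 5 libraries below. Visceral endoderm is the outer layer of the yolk sac, and 8 of its markers summed to 209.8 RPKM in Tie2-Ezh2-WT replicate 4 and 282 RPKM in Tie2-Ezh2-KO replicate 7. The other 13 libraries were between 11.4 and 35.2 RPKM, so these 2 libraries stood apart. Tie2-Ezh2-KO differences of the globins, *Ezh2* and list genes past the threshold are therefore also given without them, an alternative chosen after seeing the data.

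*Hba-x* encodes ζ globin, the embryonic α-like chain, and spans chromosome 11 from 32276600 to 32278116 (GRCm38). It was at 1.44, 0.316 and 1.34 RPKM in Tie2-Ezh2-WT and at 1.01 and 2.67 RPKM in Vav-Ezh2-WT. *Hba-x* values of Tie2-Ezh2-KO were 38.4, 305, 339, 32.9 and 117 RPKM. Those of Vav-Ezh2-KO were 0.708, 8.51, 1.48, 4.06 and 0.697 RPKM. Every Tie2-Ezh2-KO library was above every WT and every Vav-Ezh2-KO library, with replicates 9 and 11 highest and replicates 7 and 13 lowest. The reads behind these levels were 3 to 33 a library in WT, 367 to 3012 in Tie2-Ezh2-KO and 12 to 94 in Vav-Ezh2-KO. The Tie2-Ezh2-KO libraries differed among themselves by 10.3-fold, more than the 8.45-fold range in WT. In order of mean level, Tie2-Ezh2-KO (166 ± 146 RPKM, SD, n = 5) came before Vav-Ezh2-KO (3.09 ± 3.33), Vav-Ezh2-WT (1.84 ± 1.18, n = 2) and Tie2-Ezh2-WT (1.03 ± 0.623, n = 3). The last 3 of these groups overlapped.

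Between Tie2-Ezh2-KO and WT the *Hba-x* difference was 6.33 as log2(RPKM + 0.2) (standard error 0.62, no test, since the gene was selected on it). It was 6.78 without the 2 libraries of highest visceral endoderm markers and between 5.63 and 6.78 over 19 alternatives. The Vav-Ezh2-KO libraries were not used to select the family, but the WT libraries were, so their comparison is not free of the selection. In Vav-Ezh2-KO the *Hba-x* difference was 0.70 (standard error 0.60, 95% interval -0.58 to 1.98, limma adjusted p = 0.799). Leaving out 1 library moved it between 0.20 (without Vav-Ezh2-KO replicate 9) and 1.02 (without Vav-Ezh2-KO replicate 1 or 28). Of the 5 Vav-Ezh2-KO libraries, replicates 9 and 26 were above all WT libraries and the other 3 were within the WT range. The two-sided exact permutation test over 252 splits gave p = 0.381, where the smallest p it can give is 0.00794. Vav-Ezh2-KO *Hba-x* thus did not pass the test. In bulk RNA of sorted cells, more cells with *Hba-x* RNA and more *Hba-x* RNA per cell cannot be told apart.

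*Hbq1b* and *Hbq1a* encode θ globins and lie beyond *Hba-x* in the α locus, from 32286964 to 32287912 and from 32300069 to 32300873 on chromosome 11. *Hbq1b* was at 0, 0.423 and 0.0326 RPKM in Tie2-Ezh2-WT and at 0 in both Vav-Ezh2-WT libraries. *Hbq1b* values of Tie2-Ezh2-KO were 6.38, 3.59, 3.79, 2.04 and 2.41 RPKM. In Vav-Ezh2-KO it was at 0.142 RPKM in replicate 1 and 0.652 RPKM in replicate 28, and at 0 in replicates 9, 10 and 26. Tie2-Ezh2-KO libraries were again all above the others, here with replicate 7 highest. The Tie2-Ezh2-KO difference was 3.79 (standard error 0.39, no test) and 3.47 without the 2 libraries of highest visceral endoderm markers. Because 3 WT libraries were at 0, its size depends on the pseudocount, with 2.03 at a pseudocount of 1 and 5.30 at 0.05. In Vav-Ezh2-KO the *Hbq1b* difference was 0.20 (standard error 0.44, 95% interval -0.75 to 1.15, limma adjusted p = 0.928; two-sided exact permutation p = 0.722). It was -0.18 without Vav-Ezh2-KO replicate 28, which held 14 of the group's 17 reads.

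*Hbq1a* had reads in a single WT library, 2 in Tie2-Ezh2-WT replicate 12 (0.0807 RPKM). *Hbq1a* values of Tie2-Ezh2-KO were 1.45, 1.41, 1.23, 0.617 and 0.309 RPKM. In Vav-Ezh2-KO it was at 0.196 RPKM in replicate 10, again 2 reads, and at 0 in the other 4 libraries. Tie2-Ezh2-KO libraries were thus all above the other 10, with replicate 17 nearest to them at 3 reads. Over the groups, 51 reads in Tie2-Ezh2-KO stood against 2 in WT, a ratio of 29.3 after scaling by depth (95% counting interval 7.70 to 248), while the ratio of group means, which weighs libraries equally, was 62.2. Both ratios describe values on which the family was selected and test nothing. The fitted difference was 2.36 (standard error 0.35, no test) and 2.18 without the 2 libraries of highest visceral endoderm markers. Its size depends on the pseudocount, with 0.94 at a pseudocount of 1 and 3.93 at 0.05, and was 3.81 with limma-voom. The gene passed the filter on low values only through Tie2-Ezh2-KO and was not tested in Vav-Ezh2-KO. *Hbq1a* and *Hbq1b* share sequence: of the 530 stretches of 75 bases, the read length, in *Hbq1a* RNA, 154 (29.1%) are also in *Hbq1b*. Summed over both genes, θ RNA was at 0.107 ± 0.183 RPKM in WT, 4.64 ± 2.13 in Tie2-Ezh2-KO and 0.198 ± 0.268 in Vav-Ezh2-KO (SD, n = 5 each).

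*Hbb-bh1* encodes βh1, an embryonic β-like chain, and spans chromosome 7 from 103841638 to 103843162 on the minus strand. It was at 137, 123 and 139 RPKM in Tie2-Ezh2-WT and at 60.1 and 112 RPKM in Vav-Ezh2-WT. *Hbb-bh1* values of Tie2-Ezh2-KO were 262, 277, 508, 158 and 165 RPKM. Those of Vav-Ezh2-KO were 81.4, 108, 57.6, 146 and 148 RPKM. Among the globins with values it was the most abundant in all WT and Vav-Ezh2-KO libraries and in 4 of 5 Tie2-Ezh2-KO libraries, with *Hba-x* above it in replicate 9. All Tie2-Ezh2-KO libraries were above all WT and Vav-Ezh2-KO libraries, although replicate 13 was close to the highest Vav-Ezh2-KO library. By group mean, Tie2-Ezh2-KO (274 ± 142 RPKM, SD, n = 5) was followed by Tie2-Ezh2-WT (133 ± 8.37, n = 3), Vav-Ezh2-KO (108 ± 39.7) and Vav-Ezh2-WT (86.0 ± 36.7, n = 2). Vav-Ezh2-KO overlapped with both of its neighbours in this order.

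The *Hbb-bh1* difference between Tie2-Ezh2-KO and WT was 1.18 (standard error 0.29, no test). It was 1.24 without the 2 libraries of highest visceral endoderm markers and between 0.91 and 1.35 over 19 alternatives. In Vav-Ezh2-KO the *Hbb-bh1* difference was -0.11 (standard error 0.26, 95% interval -0.67 to 0.46, limma adjusted p = 0.939; two-sided exact permutation p = 0.786). Its sign was not stable: against the 2 Vav-Ezh2-WT libraries alone it was 0.31, and without Vav-Ezh2-KO replicate 10 it was 0.10. The Vav-Ezh2-KO libraries lay on both sides of the WT mean, 2 above and 3 below.

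*Hbb-y* encodes εy, the other embryonic β-like chain, and spans chromosome 7 from 103851754 to 103853207 on the minus strand. It was at 1.55, 1.94 and 1.5 RPKM in Tie2-Ezh2-WT and at 4.12 and 3.40 RPKM in Vav-Ezh2-WT. *Hbb-y* values of Tie2-Ezh2-KO were 8.72, 3.38, 8.39, 1.45 and 1.81 RPKM. Those of Vav-Ezh2-KO were 2.92, 4.47, 0.863, 4.63 and 3.32 RPKM. Unlike the preceding genes, *Hbb-y* overlapped between all 3 sets: Tie2-Ezh2-KO replicates 7 and 11 were above every WT library and replicate 13 was below every WT library. Between Tie2-Ezh2-KO and WT the *Hbb-y* difference was 0.64 (standard error 0.47, no test), and 0.21 without the 2 libraries of highest visceral endoderm markers. In Vav-Ezh2-KO the *Hbb-y* difference was 0.28 (standard error 0.40, 95% interval -0.57 to 1.14, limma adjusted p = 0.880; two-sided exact permutation p = 0.587). It was -0.37 against the 2 Vav-Ezh2-WT libraries alone, which were both above the 3 Tie2-Ezh2-WT libraries. Leaving out 1 library moved it between 0.12 (without Vav-Ezh2-KO replicate 26) and 0.66 (without Vav-Ezh2-KO replicate 10).

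*Hbb-b1* and *Hbb-b2* are names of adult β genes. *Hbb-b2* was listed at 0 in all 15 libraries. *Hbb-b1* had 1 read in Tie2-Ezh2-KO replicate 9, 2 in Vav-Ezh2-KO replicate 1 and 1 in Vav-Ezh2-KO replicate 28, and was at 0 in the other 12 libraries. Both names belong to a β haplotype other than that of C57BL/6, whose adult β genes are *Hbb-bs* and *Hbb-bt*. *Hbb-bs* has values under its older symbol *Beta-s*, with no values for *Hbb-bt* analysed here. Of the 554 stretches of 75 bases in *Hbb-bs* RNA, 356 (64.3%) are also in *Hbb-bt*.

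*Beta-s*, outside the 9 genes, was at 17.7, 13.5 and 13.8 RPKM in Tie2-Ezh2-WT and at 15.1 and 18.0 RPKM in Vav-Ezh2-WT. *Beta-s* values of Tie2-Ezh2-KO were 33.1, 31.1, 35.1, 11.4 and 21.2 RPKM. Those of Vav-Ezh2-KO were 12.2, 30.7, 13.3, 16.6 and 17.8 RPKM. Adult β RNA was thus measured in every library, and 4 of 5 Tie2-Ezh2-KO libraries were above all WT libraries while replicate 13 was below them. The difference in Tie2-Ezh2-KO was 0.65 (standard error 0.25, limma adjusted p = 0.295; two-sided exact permutation p = 0.0952). This call depended on Tie2-Ezh2-KO replicate 13: without it the difference was 0.92 (limma adjusted p = 0.00880), with limma adjusted p from 0.00880 to 0.562 over 19 alternatives. Without the 2 libraries of highest visceral endoderm markers it was 0.59 (limma adjusted p = 0.543). In Vav-Ezh2-KO the *Beta-s* difference was 0.14 (standard error 0.20, 95% interval -0.30 to 0.58, limma adjusted p = 0.886), and -0.07 without replicate 9. Among the remaining globins, *Hbb-bh2* had 1 read each in Vav-Ezh2-KO replicates 9 and 10, and *Cygb* and *Ngb*, the globins of fibroblasts and neurons, had at most 22 and 4 reads in a library. *Hbb-bt*, *Hbb-bh0* and *Mb* were not analysed here. Of these 7 other globins 3 were tested in Tie2-Ezh2-KO and 2 in Vav-Ezh2-KO, with median differences of 0.39 and -0.06 and 0 past the adjusted threshold with limma or limma-voom (1 and 0 at an unadjusted p under 0.05).

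**Figure D1:**
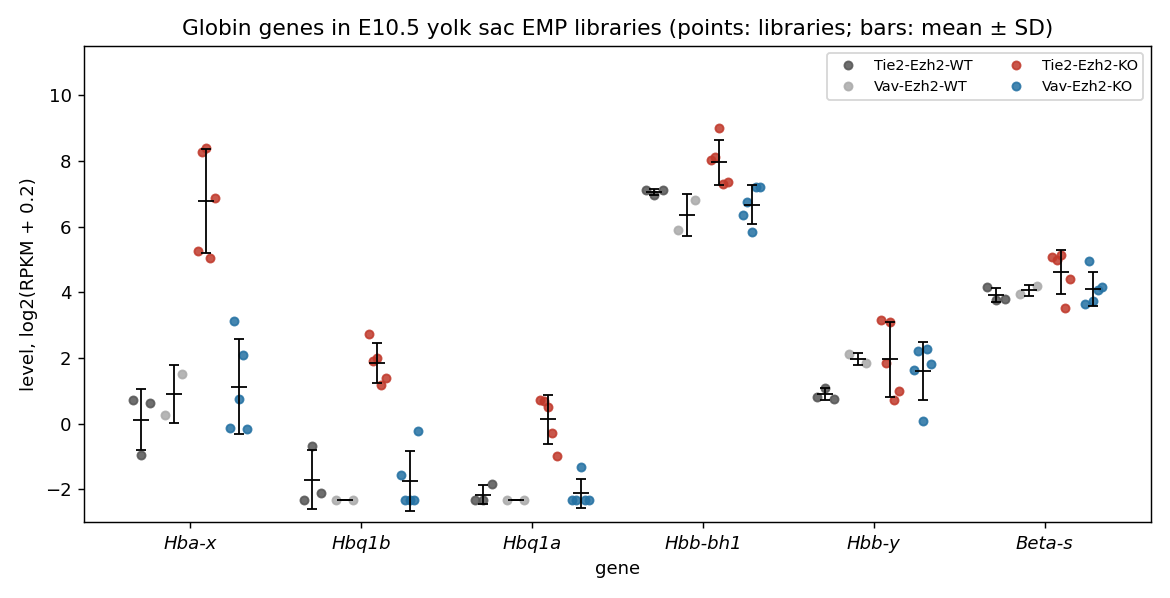
Levels of 6 globin genes on the log2(RPKM + 0.2) scale (vertical axis) in the 4 groups of libraries, with a point for each library and bars for the mean ± SD. The Tie2-Ezh2-KO points of *Hba-x*, *Hbq1b*, *Hbq1a* and *Hbb-bh1* lie above all other points of the same gene, and those of *Hbb-y* and *Beta-s* overlap with the others.

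Of the 7 genes with values, 5 passed the filter on low values in Tie2-Ezh2-KO against WT, and 4 of these, all higher, had a limma adjusted p under 0.05. Over all genes 386 of 14154 (2.73%) did, 343 of them (2.42%) higher, with 1552 at an unadjusted p under 0.05, and nothing is read from the family's count because it was selected on this comparison. The share of all genes whose Tie2-Ezh2-KO libraries lay wholly above or below WT is not reported here. Lack of overlap, for a globin or any other gene named, is therefore a description and is not read as unusual. In Vav-Ezh2-KO against WT 4 of the 7 genes were tested, and 0 had a limma adjusted p under 0.05, where 1 of 13646 genes did (0.00733%). At an unadjusted p under 0.05 the count was also 0 of 4, while 1082 of 13646 genes passed. With limma-voom on the recovered reads it was 0 of 4, with a lowest adjusted p of 0.873. The 1 gene that passed in Vav-Ezh2-KO was *Sva*, which is no globin gene and was singled out after its values were seen (difference 3.86, standard error 0.30, limma adjusted p = 3.72e-05). This call was lost with limma-voom, where 0 genes passed. The size of the *Sva* difference depends on the pseudocount, with 1.91 at a pseudocount of 1 and 5.78 at 0.05. With so few genes past the threshold in all, the intervals given with each gene say more of the family than its count of 0.

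The reads behind the values set how well each gene was measured. *Hbb-bh1* had 867, 1190 and 3476 reads in Tie2-Ezh2-WT, 546 and 1363 in Vav-Ezh2-WT, 2547, 2578, 4590, 2581 and 1620 in Tie2-Ezh2-KO and 1402, 1209, 592, 1028 and 2587 in Vav-Ezh2-KO. *Hbb-y* had 10, 19 and 38 reads in Tie2-Ezh2-WT, 38 and 42 in Vav-Ezh2-WT, 86, 32, 77, 24 and 18 in Tie2-Ezh2-KO and 51, 51, 9, 33 and 59 in Vav-Ezh2-KO. *Hbq1b* had 76, 41, 42, 41 and 29 reads in Tie2-Ezh2-KO, where WT held 6 in all. *Hbb-bh1* was thus counted well in every library, while *Hbb-y* and the θ genes rest on few reads. Summed over libraries, *Hba-x* had 86 reads in WT, 7838 in Tie2-Ezh2-KO and 161 in Vav-Ezh2-KO.

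Libraries of a group differed from each other, most of all for *Hba-x*. On the log2(RPKM + 0.2) scale the SD of *Hba-x* was 0.90 in WT, 1.59 in Tie2-Ezh2-KO and 1.44 in Vav-Ezh2-KO (n = 5 each). For *Hbb-y* it was 0.62, 1.14 and 0.89, and for *Hbb-bh1* 0.50, 0.68 and 0.58 in the same order. Highest over lowest library, *Hba-x* ranged 12.2-fold in Vav-Ezh2-KO, *Hbb-y* 5.37-fold and *Hbb-bh1* 2.57-fold. Spread in the 2 knockouts was thus above that in WT for these 3 genes, which was not tested.

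Values against WT of the same Cre line alone rest on 3 or 2 controls. In Tie2-Ezh2-KO against the 3 Tie2-Ezh2-WT libraries the differences were 6.64 for *Hba-x*, 3.54 for *Hbq1b*, 2.29 for *Hbq1a*, 0.91 for *Hbb-bh1* and 1.07 for *Hbb-y*. In Vav-Ezh2-KO against the 2 Vav-Ezh2-WT libraries the *Hba-x* difference was 0.24 (limma adjusted p = 0.958, range 0.686 to 0.958 over 18 alternatives). That of *Hbq1b* was 0.57 there (limma adjusted p = 0.893, range 0.859 to 0.989). With either set of controls the *Hba-x* difference was thus largest in Tie2-Ezh2-KO and not past the test in Vav-Ezh2-KO.

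Both knockouts were compared with the same 5 WT libraries. Side by side, the differences in Tie2-Ezh2-KO and Vav-Ezh2-KO were 6.33 and 0.70 for *Hba-x*, 3.79 and 0.20 for *Hbq1b*, 1.18 and -0.11 for *Hbb-bh1* and 0.64 and 0.28 for *Hbb-y*. Between the knockouts themselves, the mean *Hba-x* level of Tie2-Ezh2-KO was 53.9 times that of Vav-Ezh2-KO. The same ratio was 22.9 for *Hbq1b*, 2.53 for *Hbb-bh1* and 1.47 for *Hbb-y*. Several of these rest on the highest Vav-Ezh2-KO library: *Hba-x* had a ratio of 95.9 without replicate 9, and *Hbq1b* of 103 without replicate 28. *Hbq1a* is given no ratio, since Vav-Ezh2-KO held 2 reads, both in replicate 10. Because the family was selected on Tie2-Ezh2-KO, the difference between the knockouts was not tested for it.

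The make-up of globin RNA was compared within libraries. Of the summed RPKM of the β-like members, *Hbb-bh1* made up 97.4% ± 2.25 in WT, 98.4% ± 0.935 in Tie2-Ezh2-KO and 97.1% ± 1.02 in Vav-Ezh2-KO (SD, n = 5 each). *Hbb-y* made up nearly all of the rest, 2.62% ± 2.25, 1.61% ± 0.939 and 2.84% ± 1.0 in the same order. These shares overlapped between the 3 sets. With *Beta-s* and *Hbb-bh2* in the sum, the *Hbb-bh1* share was 85.3% ± 5.80 in WT, 89.5% ± 2.73 in Tie2-Ezh2-KO and 82.9% ± 5.17 in Vav-Ezh2-KO. *Beta-s* then made up 12.5% ± 4.06, 9.04% ± 2.35 and 14.6% ± 5.12. Among the β-like genes with values, *Hbb-bh1* was thus highest in every library and *Beta-s* second, with *Hbb-bt* not among them.

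**Figure D2:**
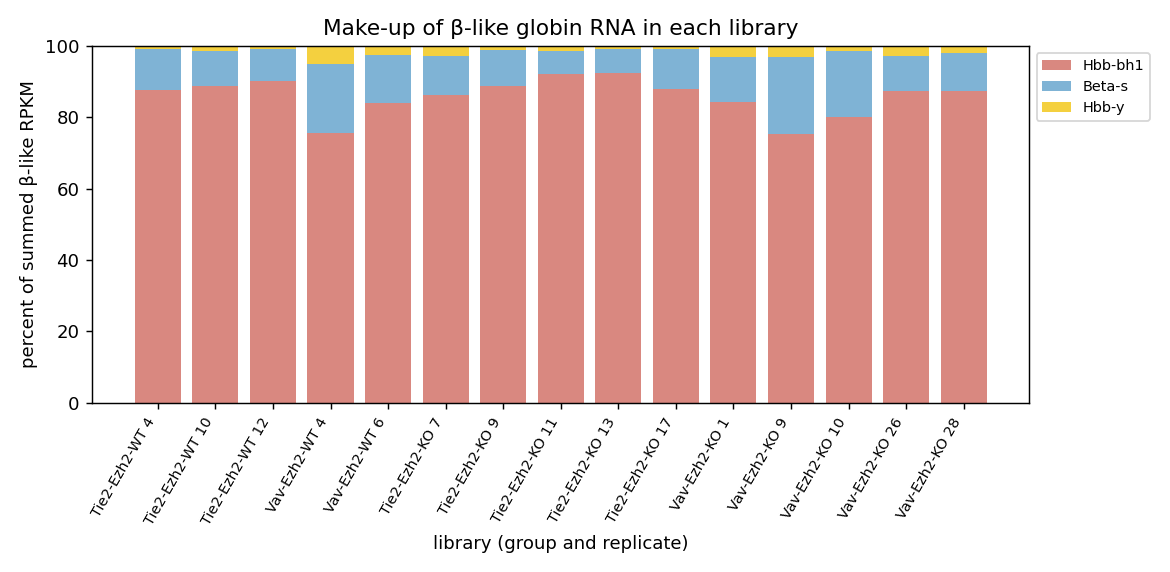
Share of *Hbb-bh1*, *Beta-s* and *Hbb-y* in the summed RPKM of β-like genes (vertical axis, percent) in each of the 15 libraries (horizontal axis). *Hbb-bh1* makes up between 75.3% and 92.5% in every library.

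*Hba-x* stood in another relation to the β-like genes in Tie2-Ezh2-KO. For Tie2-Ezh2-KO the ratio of *Hba-x* to *Hbb-bh1* RPKM was 0.146, 1.1, 0.667, 0.209 and 0.708. It was between 0.00256 and 0.0239 in WT and between 0.00472 and 0.0790 in Vav-Ezh2-KO. The Tie2-Ezh2-KO ratios were thus all above the others, with no overlap. Of the summed RPKM of the 7 genes, *Hba-x* made up 32.2% ± 16.9 in Tie2-Ezh2-KO, 2.68% ± 2.62 in Vav-Ezh2-KO and 1.21% ± 0.749 in WT (SD, n = 5 each). The sum itself was 449.7 ± 273 RPKM in Tie2-Ezh2-KO, 115 ± 41.6 in Vav-Ezh2-KO and 118 ± 31.2 in WT. With the other globins that had values, the sum was 476 ± 280.1, 133 ± 44.8 and 134 ± 31.3 RPKM. The θ genes were a small part of this: θ RNA over *Hba-x* RNA was between 0.0148 and 0.204 in Tie2-Ezh2-KO. A share of *Hba-x* in all α-like RNA was not analysed here, since it needs *Hba-a1* and *Hba-a2*.

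Markers of maturing red cells other than globins were set beside *Hba-x*. Of 16 listed genes 15 had values, and *Ahsp*, the α-globin chaperone, was not analysed here. Their summed level was 94.1, 68.1 and 76.8 RPKM in Tie2-Ezh2-WT and 49.6 and 48.7 RPKM in Vav-Ezh2-WT. The Tie2-Ezh2-KO sums were 99.7, 85.3, 115, 81.7 and 79.1 RPKM, and the Vav-Ezh2-KO sums 64.2, 83.0, 58.8, 67.2 and 64.1 RPKM. The sums of Tie2-Ezh2-KO overlapped with those of Tie2-Ezh2-WT, and the 2 Vav-Ezh2-WT libraries were lowest. With limma 0 of 15 genes tested had an adjusted p under 0.05 in Tie2-Ezh2-KO, 4 had an unadjusted p under 0.05 (1552 of 14154 over all genes), 0 passed with limma-voom, and the median difference was 0.36 against 0.01 over all genes. *Trim10*, a gene of red cell maturation, passed without Tie2-Ezh2-WT replicate 10 (limma adjusted p = 0.0437) or Tie2-Ezh2-KO replicate 9 (0.0302), within a range of 0.0302 to 0.397 over 19 alternatives. In Vav-Ezh2-KO 0 of 14 passed limma's adjusted threshold, 1 had an unadjusted p under 0.05, 0 passed with limma-voom, and the median difference was -0.01 against -0.02 over all genes. Their part in the globin levels was not tested.

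*Alas2*, the red cell enzyme that begins heme synthesis, was at 1.24 ± 0.650 RPKM in WT, 2.31 ± 0.708 in Tie2-Ezh2-KO and 0.909 ± 0.695 in Vav-Ezh2-KO (SD, n = 5 each). Its difference in Tie2-Ezh2-KO was 0.89 (standard error 0.34, limma adjusted p = 0.270). *Slc4a1*, the anion exchanger of mature red cells, was at 0 in all WT and Vav-Ezh2-KO libraries and at most 0.386 RPKM in Tie2-Ezh2-KO. Of the 5 Tie2-Ezh2-KO libraries, 3 were at 0 for *Slc4a1*.

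**Figure D3:**
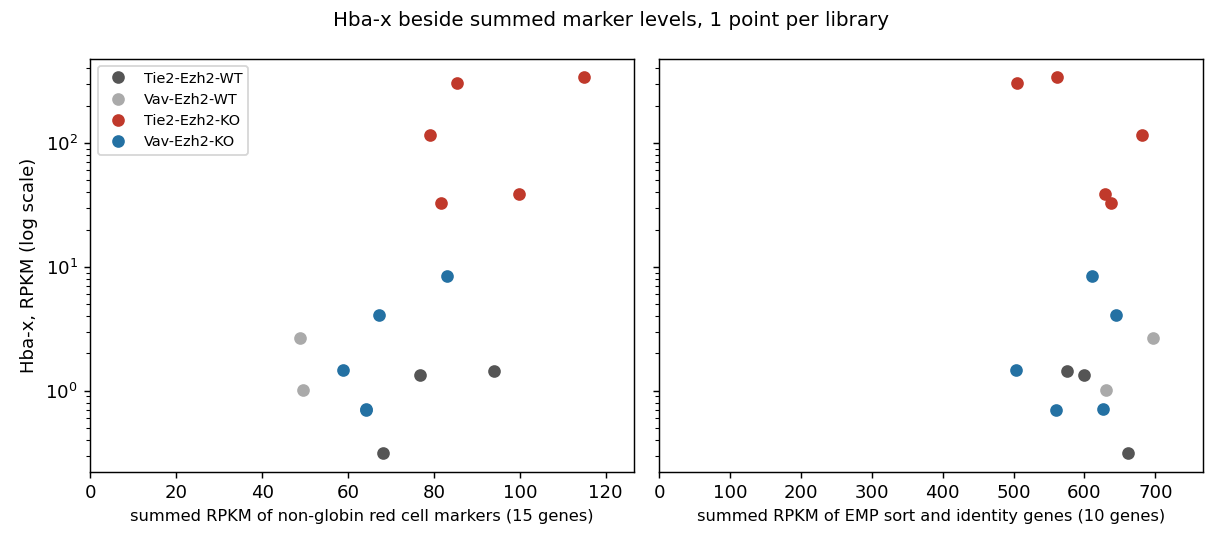
*Hba-x* RPKM on a log scale (vertical axes) against the summed RPKM of 15 non-globin red cell markers (left) and of 10 EMP sort and identity genes (right), with a point for each library coloured by group. Tie2-Ezh2-KO libraries lie at 32.9 RPKM and above, over ranges of both sums that other groups share in part.

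Patterns like that of *Hba-x* were looked for among 10118 genes above 0.2 RPKM in all 15 libraries, after the mean of each group was subtracted. The libraries of a group share their genotype, so these Pearson r values over 15 libraries describe the spread within groups. The 5 highest were those of *Cap2* (0.84), *Zswim7* (0.83), *4930507D05Rik* (0.80), *Alox5ap* (0.78) and *2610020H08Rik* (0.77). They are the highest of many values, and the lowest, -0.79, was nearly as far from 0, so no relation is read from them. The Tie2-Ezh2-KO values of *Zswim7*, for example, were 11.3, 30.5, 27.6, 13.0 and 16.2 RPKM, with the same pair of libraries highest and lowest as for *Hba-x*. Within groups, r with *Hba-x* was 0.66 for *Beta-s*, 0.49 for *Hbb-bh1*, 0.27 for *Hbb-y* and -0.45 for *Hbq1b*. *Hbq1b* was at 0 in 6 of the 10 WT and Vav-Ezh2-KO libraries, so its r does not show whether it varied with *Hba-x*. It was 0.54 for the summed red cell markers and -0.08 for the summed visceral endoderm markers.

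Other genes of the α locus region were taken from a list of 7 neighbours, all with values. *Rhbdf1*, which encodes an inactive rhomboid protease, spans chromosome 11 from 32209585 to 32222331. It was at 0.85, 0.430 and 0.282 RPKM in Tie2-Ezh2-WT and at 0.388 and 0.716 RPKM in Vav-Ezh2-WT. *Rhbdf1* values of Tie2-Ezh2-KO were 1.73, 1.20, 1.88, 2.90 and 1.63 RPKM, all above WT. *Rhbdf1* rose by 1.51 on the log2(RPKM + 0.2) scale in Tie2-Ezh2-KO (standard error 0.31, limma adjusted p = 0.0154), and by 1.67 without the 2 libraries of highest visceral endoderm markers (limma adjusted p = 0.0354). The call held in 18 of 19 alternatives, with limma adjusted p from 0.00338 to 0.0797, and was lost against the 3 Tie2-Ezh2-WT libraries alone. In Vav-Ezh2-KO, at 0.557 to 0.848 RPKM, the *Rhbdf1* difference was 0.37 (standard error 0.28, limma adjusted p = 0.762). With each knockout against WT of its own Cre line, the difference between the 2 effects was 1.24 (standard error 0.50, limma adjusted p = 0.621) and did not pass.

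The other 6 neighbours did not pass in either comparison with limma or limma-voom, and 2 of the 7 had an unadjusted p under 0.05 in Tie2-Ezh2-KO and 0 in Vav-Ezh2-KO. *Nprl3*, whose introns hold enhancers of the α locus, differed by -0.05 in Tie2-Ezh2-KO (standard error 0.18, limma adjusted p = 0.973) and lies between *Rhbdf1* and *Hba-x*. *Mpg*, a DNA repair glycosylase gene beside it, differed by 0.27 (standard error 0.17, limma adjusted p = 0.684). *Snrnp25*, a splicing factor gene, was the most abundant neighbour at 171 ± 23.6 RPKM in WT and 196 ± 48.8 in Tie2-Ezh2-KO (SD, n = 5 each). *Il9r*, *Sh3pxd2b* and *Ubtd2* differed by 0.61, 0.14 and 0.43 (limma adjusted p = 0.673, 0.952 and 0.284). Over the 7 neighbours the median difference was 0.27 in Tie2-Ezh2-KO and 0.10 in Vav-Ezh2-KO, beside 0.01 and -0.02 over all genes. The genes between *Rhbdf1* and *Hba-x* thus did not share its rise past the test.

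Transcription factors that activate globin genes had values for all 12 listed, and 0 passed the adjusted threshold of limma or limma-voom in either comparison (1 at an unadjusted p under 0.05 in Tie2-Ezh2-KO, 3 in Vav-Ezh2-KO). *Gata1*, the main red cell factor, was at 168 ± 13.0 RPKM in WT, 178 ± 15.3 in Tie2-Ezh2-KO and 185 ± 17.8 in Vav-Ezh2-KO (SD, n = 5 each). *Klf1*, which activates adult β globin, was at 145 ± 29.9 RPKM in WT, 203 ± 51.8 in Tie2-Ezh2-KO and 136 ± 26.4 in Vav-Ezh2-KO. Its difference in Tie2-Ezh2-KO was 0.47 (standard error 0.17, limma adjusted p = 0.249), with 4 of 5 libraries above the WT mean. *Nfe2* and *Lmo2*, a DNA-binding factor and a bridging factor, differed by 0.01 and -0.08 in Tie2-Ezh2-KO (limma adjusted p = 0.995 and 0.899). The median over the 12 was -0.04 in Tie2-Ezh2-KO and 0.02 in Vav-Ezh2-KO.

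Factors that silence embryonic globin genes or set the stage of their use gave 18 tested of 20 listed. With limma or limma-voom 0 passed in either comparison (1 in each at an unadjusted p under 0.05), the lowest adjusted p was 0.0984 in Tie2-Ezh2-KO and 0.620 in Vav-Ezh2-KO, and the medians were -0.06 and -0.05. *Myb*, a progenitor factor that holds back embryonic globin use, was at 52.4 ± 4.44 RPKM in WT, 45.7 ± 9.99 in Tie2-Ezh2-KO and 48.0 ± 4.96 in Vav-Ezh2-KO (SD, n = 5 each). The deacetylase genes *Hdac1* and *Hdac2* differed by -0.02 and -0.06 in Tie2-Ezh2-KO (limma adjusted p = 0.981 and 0.899). *Mbd2*, which encodes a reader of methylated DNA, differed by 0.01 (limma adjusted p = 0.996). The lists of globin regulators thus gave no gene past the test at these depths.

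Heme synthesis had 9 of 9 enzymes tested, 0 past the adjusted threshold of limma or limma-voom in either comparison (2 and 0 at an unadjusted p under 0.05), and medians of -0.08 in Tie2-Ezh2-KO and -0.14 in Vav-Ezh2-KO. *Alad*, an early enzyme, and *Fech*, which puts iron into heme, differed by 0.33 and -0.17 in Tie2-Ezh2-KO (limma adjusted p = 0.351 and 0.888). Iron supply and chaperone genes had 11 of 12 tested, 0 past the threshold of limma or limma-voom (1 in each comparison at an unadjusted p under 0.05), and medians of -0.01 and -0.03. *Tmem14c*, a mitochondrial porphyrin transporter gene, had the lowest adjusted p of them in Tie2-Ezh2-KO (-0.46, standard error 0.14, limma adjusted p = 0.118), with 4 of 5 libraries below all WT libraries. It passed with quantile normalization (limma adjusted p = 0.0240) and without Tie2-Ezh2-KO replicate 9 (-0.58, 0.00946), within a range of 0.00946 to 0.510 over 19 alternatives. In Vav-Ezh2-KO *Tmem14c* went the other way (0.26, standard error 0.09, limma adjusted p = 0.542), with 4 of 5 libraries above all WT libraries. *Abcb10*, the gene of another mitochondrial transporter, passed when replicate 9 of Tie2-Ezh2-KO was left out (0.65, limma adjusted p = 0.0270, range 0.0270 to 0.921).

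Red cell membrane genes had 17 of 18 tested in Tie2-Ezh2-KO, and 1 passed, *Rhd*, which encodes a Rh blood group protein. It was at 1.40, 0.334 and 3.11 RPKM in Tie2-Ezh2-WT and at 1.77 and 2.71 RPKM in Vav-Ezh2-WT. Values of *Rhd* in Tie2-Ezh2-KO, 8.12, 5.27, 9.85, 4.14 and 6.73 RPKM, were all above WT. *Rhd* rose by 1.95 (standard error 0.42, limma adjusted p = 0.0214). The call held in 14 of 19 alternatives, with limma adjusted p from 0.0138 to 0.122. Leaving out replicate 7 of Tie2-Ezh2-KO lost it (limma adjusted p = 0.0606), as did leaving out replicate 11 (0.0653) or the 2 libraries of highest visceral endoderm markers (a difference of 1.84, 0.122). In Vav-Ezh2-KO *Rhd* differed by -0.37 (standard error 0.53, limma adjusted p = 0.886), and the difference between the 2 effects was 3.08 (standard error 0.86, limma adjusted p = 0.232). *Gypc*, which encodes glycophorin C, was the most abundant of the list at 79.1 ± 9.0 RPKM in WT and 94.6 ± 8.60 in Tie2-Ezh2-KO (0.26, standard error 0.11, limma adjusted p = 0.333). The list's median was 0.19 in Tie2-Ezh2-KO, where 4 of 17 genes had an unadjusted p under 0.05, and -0.07 in Vav-Ezh2-KO, where 0 of 16 passed with limma or limma-voom and 0 had an unadjusted p under 0.05. With limma-voom the 1 gene of the list past the threshold in Tie2-Ezh2-KO was *Epb4.9* instead, the gene of the membrane skeleton protein dematin (limma-voom adjusted p = 0.0270). With limma as reported it missed the threshold (1.24, standard error 0.33, limma adjusted p = 0.0652, range 0.0270 to 0.314 over 19 alternatives). It passed in 4 of them, the others being limma with a pseudocount of 1 (adjusted p = 0.0387), scaled to a common median (0.0398) and without Tie2-Ezh2-WT replicate 4 (0.0411). *Aqp1*, a water channel gene, passed with limma without Tie2-Ezh2-KO replicate 9 (2.67, adjusted p = 0.00591, range 0.00591 to 0.510).

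Markers of other cells were measured in the same libraries, with 8 genes in each list, and their part in the globin levels was not tested. Endothelial markers summed to 47.5 ± 3.17 RPKM in WT, 49.8 ± 4.66 in Tie2-Ezh2-KO and 46.3 ± 13.3 in Vav-Ezh2-KO (SD, n = 5 each), with *Pecam1* most abundant. Their median differences were 0.36 in Tie2-Ezh2-KO and -0.08 in Vav-Ezh2-KO, with 0 genes past the threshold of limma or limma-voom (2 and 0 at an unadjusted p under 0.05). In Tie2-Ezh2-KO 7 of the 8 were higher, while *Pecam1* was lower in all 5 libraries than in all WT libraries (-0.62, standard error 0.20, limma adjusted p = 0.150), so the sums join moves in both directions. Macrophage markers summed to 20.3 ± 6.59, 16.5 ± 4.80 and 23.2 ± 1.99 RPKM, with *Cd68* most abundant, *C1qa* at 0 in every library, median differences of -0.21 and 0.25, and 0 genes past the threshold with limma or limma-voom (2 and 0 unadjusted). Megakaryocyte markers summed to 233 ± 92.7, 206 ± 55.0 and 217 ± 58.7 RPKM, with median differences of -0.19 and -0.12. Each of these sums overlapped between Tie2-Ezh2-KO and WT. *Gp1ba*, a platelet receptor gene, fell by 0.94 in Tie2-Ezh2-KO (standard error 0.24, limma adjusted p = 0.0495), a call kept in 6 of 19 alternatives (limma adjusted p from 0.0174 to 0.250). Without the 2 libraries of highest visceral endoderm markers it was -0.76 (limma adjusted p = 0.250). Leaving out Tie2-Ezh2-WT replicate 4 (limma adjusted p = 0.121) or 10 (0.134), Vav-Ezh2-WT replicate 4 (0.146) or 6 (0.0702), or Tie2-Ezh2-KO replicate 7 (0.131), 9 (0.0640), 11 (0.0844) or 17 (0.103) lost it. In Vav-Ezh2-KO *Gp1ba* differed by -0.30 (standard error 0.22, limma adjusted p = 0.752), and the difference between the 2 effects was -0.52 (limma adjusted p = 0.971). In that comparison 0 of 8 megakaryocyte genes passed with limma or limma-voom, and 1 had an unadjusted p under 0.05, against 2 in Tie2-Ezh2-KO.

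Visceral endoderm markers had *Trf*, the transferrin gene, as the most abundant. Their median difference was 0.34 in Tie2-Ezh2-KO, where 1 of 8 passed with limma and 1 had an unadjusted p under 0.05, and -0.98 in Vav-Ezh2-KO, where 0 of 7 passed with limma or limma-voom, 1 had an unadjusted p under 0.05 and the lowest limma adjusted p was 0.542. Without Tie2-Ezh2-WT replicate 4, the WT library of highest markers, the Vav-Ezh2-KO median was -0.21. The gene that passed was *Amn*, which encodes amnionless, part of an uptake receptor. Its Tie2-Ezh2-KO values were 4.66, 1.67, 1.52, 2.08 and 2.21 RPKM, and in WT it was between 0 and 0.798 RPKM. All Tie2-Ezh2-KO libraries were above WT, also those in which the other markers of the list were low. *Amn* rose by 3.01 (standard error 0.45, limma adjusted p = 0.00155), and by 3.19 without the 2 libraries of highest visceral endoderm markers (limma adjusted p = 0.000492). Because 3 WT libraries were at 0, the size depends on the pseudocount, with 1.51 at 1 and 4.34 at 0.05, and was 5.78 with limma-voom, where limma adjusted p over 19 alternatives was 0.000210 to 0.0216. In Vav-Ezh2-KO *Amn* differed by -0.42 (standard error 0.42, limma adjusted p = 0.835), and the difference between the 2 effects was 2.99 (standard error 0.73, limma adjusted p = 0.153). *Afp*, which encodes α-fetoprotein, reached 59.9 RPKM in Tie2-Ezh2-KO replicate 7, the library with the second lowest *Hba-x* level of its group. The EMP sort and identity list had 0 of 10 genes past the threshold of limma or limma-voom in either comparison (3 and 2 at an unadjusted p under 0.05), with medians of -0.20 in Tie2-Ezh2-KO and -0.14 in Vav-Ezh2-KO.

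The sequences before the starts of globin genes are shown as a description, and shared regulation was not tested. They are 250 bases each, 5′ to 3′ on the gene's strand, from a RefSeq table of promoters on GRCm38.p6, in which 6 of the 9 members matched by symbol. *Hbb-bh1*, *Hbb-b1* and *Hbb-b2* had no entry in that table, and *Hba-a1* and *Hba-a2*, without expression values, are not shown. Capitals mark 4 short motifs, each searched on both strands. They are GATAA (the core of GATA factor sites), CACCC (the core of KLF1 sites), the CCAAT box and the TATA box (as TATAAA). A match is a description of letters and not a site. *Hba-x* is preceded by chr11:32276350-32276599 (plus strand).
Hba-x: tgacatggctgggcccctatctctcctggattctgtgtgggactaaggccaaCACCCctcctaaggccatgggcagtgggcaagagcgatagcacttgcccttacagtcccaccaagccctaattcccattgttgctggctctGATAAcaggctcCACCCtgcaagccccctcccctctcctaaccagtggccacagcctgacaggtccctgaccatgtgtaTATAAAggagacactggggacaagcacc
Hbq1b and Hbq1a are preceded by chr11:32286714-32286963 and chr11:32299819-32300068 (plus strand).
Hbq1b: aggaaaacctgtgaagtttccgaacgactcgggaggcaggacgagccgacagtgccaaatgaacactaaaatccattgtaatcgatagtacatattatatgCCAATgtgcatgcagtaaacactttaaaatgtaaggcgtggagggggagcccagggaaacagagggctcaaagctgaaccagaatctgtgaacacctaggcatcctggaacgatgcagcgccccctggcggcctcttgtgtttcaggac
Hbq1a: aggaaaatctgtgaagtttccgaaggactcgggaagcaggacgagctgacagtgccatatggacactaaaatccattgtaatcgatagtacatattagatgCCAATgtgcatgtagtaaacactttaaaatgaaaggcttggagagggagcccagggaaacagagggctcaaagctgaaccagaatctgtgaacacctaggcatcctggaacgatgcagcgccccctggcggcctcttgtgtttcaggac
Hbb-y is preceded by chr7:103853208-103853457 (minus strand).
Hbb-y: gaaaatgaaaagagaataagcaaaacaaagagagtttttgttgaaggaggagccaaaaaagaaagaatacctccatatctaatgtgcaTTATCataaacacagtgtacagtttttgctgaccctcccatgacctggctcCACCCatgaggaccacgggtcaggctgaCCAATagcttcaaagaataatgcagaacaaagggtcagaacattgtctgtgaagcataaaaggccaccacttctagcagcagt

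The window of *Hba-x* holds 1 GATA core, from 107 to 103 bases before the start, with 1 KLF1 core close to it (95 to 91) and another farther away (198 to 194), and a TATA box from 28 to 23. Those of *Hbq1b* and *Hbq1a* hold none of these 3 motifs and have 1 CCAAT box each at the same place, 149 to 145 bases before the start. The window of *Hbb-y* holds a GATA core on the other strand (162 to 158), 1 KLF1 core (111 to 107) and 1 CCAAT box (83 to 79). *Hba-x* and the θ genes have none of the 4 motifs in common in these windows, from which nothing is read about their levels. Of the 32851 promoters of this length, 22.6% hold the GATA core, 52.0% the KLF1 core, 33.8% the CCAAT box and 12.4% the TATA box on either strand. The windows of *Hbq1a* and *Hbq1b* are the same at 239 of 250 positions (95.6%).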

How the data were processed

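RNA of sorted yolk sac EMPs was measured in 15 libraries of 4 groups. The authors made libraries with SMARTer Ultra Low amplification (16 PCR cycles) and Nextera XT, sequenced single 75-base reads, aligned them to GRCm38 with TopHat2 2.0.13 and assigned them to genes with featureCounts, and the deposited values are RPKM. Whole reads per gene were recovered from the steps of these values, within 1e-06 for 16877 of 17454 genes, while the other 577 were at 0 in all libraries. Total reads per library, from 10407398 to 41025074, are listed in the text. At these depths 3 reads on a model of 600 bases correspond to 0.122 to 0.48 RPKM. Each knockout (n = 5) was compared with the 5 WT libraries (3 Tie2-Ezh2-WT, 2 Vav-Ezh2-WT). Differences are of log2(RPKM + 0.2), fitted with limma 3.58.1 in R 4.3.3 (eBayes with trend) after genes with no library of the comparison above 0.2 RPKM were dropped. P values were adjusted by Benjamini-Hochberg over all genes with a threshold of 0.05. Two-sided exact permutation tests over 252 splits were run on single genes. The fit was tested on simulated data. DESeq2 and edgeR were not run. Figures and tables were made with Python 3.11.15, pandas 2.3.3 and matplotlib 3.10.9.

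The globin genes and the lists were chosen with earlier results of these data known. Named are all globin genes and α locus neighbours, of each other list the 4 genes of highest mean RPKM at most and each gene past the threshold, and the 5 genes of highest Pearson r with *Hba-x*. *Abcb10*, *Alas2*, *Aqp1*, *Slc4a1*, *C1qa*, *Epb4.9*, *Trim10* and *Sva* were named after their values were seen. The 13 lists are other globins, α locus neighbours, activators of globin genes, factors that silence or switch them, heme synthesis, iron and chaperones, red cell membrane, red cell markers, EMP sort and identity genes, endothelium, visceral endoderm, macrophages and megakaryocytes. Alternatives were pseudocounts of 1 and 0.05, no filter, median scaling, quantile normalization, WT of the same Cre line alone, all 15 libraries in 1 fit, limma-voom on recovered reads, and leaving out each library. The alternative without the 2 libraries of highest visceral endoderm markers was chosen after seeing the data. *Hba-a1* and *Hba-a2* were not analysed here, and results of some list genes are not reported here. The 3 independent experiments of the study are not assigned to libraries and were not used here.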

Additional observations from a re-analysis of the deposited data

Results flagged for a closer look

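Of 83 groups of 5 libraries examined, 16 held a library far from the others, and 10 of the 16 are at values under 1 RPKM. A gene with reads in only 1 library of a group is flagged whatever its level, and some sums share genes with other entries. No number due to chance is therefore set beside the 16. Summed visceral endoderm markers were at 282 RPKM in Tie2-Ezh2-KO replicate 7 (24.5 to 35.2 RPKM in the other 4 libraries of its group) and at 209.8 RPKM in Tie2-Ezh2-WT replicate 4 (18.0 to 26.2 RPKM in the other WT libraries). *Amn* was at 4.66 RPKM in Tie2-Ezh2-KO replicate 7 and at 1.52 to 2.21 RPKM in the others. It was also at 0.798 RPKM in Tie2-Ezh2-WT replicate 4 (0 to 0.119 in the other WT libraries) and at 0.176 RPKM in Vav-Ezh2-KO replicate 10 (0 in the others). In Tie2-Ezh2-KO replicate 9 the macrophage markers summed to 8.16 RPKM (16.9 to 19.8 in the others) and the megakaryocyte markers to 305 RPKM (179 to 187 in the others). *Mpg*, a neighbour of the α locus, was at 11.9 RPKM in Tie2-Ezh2-WT replicate 10 and at 16.2 to 17.9 RPKM in the other WT libraries. Among the globins, *Hbq1b* was at 0.423 RPKM in Tie2-Ezh2-WT replicate 10 (5 reads; 0 to 0.0326 in the other WT libraries), where the sum of both θ genes was also 0.423 RPKM, and at 0.652 RPKM in Vav-Ezh2-KO replicate 28 (14 reads; 0 to 0.142 in the others). *Hbq1a* had 2 reads in Tie2-Ezh2-WT replicate 12 (0.0807 RPKM) and 2 in Vav-Ezh2-KO replicate 10 (0.196 RPKM), and 0 in the other libraries of these groups. *Hbb-b1* had 1 read in Tie2-Ezh2-KO replicate 9 (0.105 RPKM), *Cygb* 22 in Tie2-Ezh2-KO replicate 13 (0.352 RPKM; 0 to 0.0808 in the others) and *Ngb* 4 in Tie2-Ezh2-WT replicate 4 (0.238 RPKM; 0 to 0.0310 in the others).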

How the results depend on the processing

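No paired analysis was made, because replicate numbers do not mark pairs and the labels give no batch. In Tie2-Ezh2-KO over 19 alternatives *Hba-x*, *Hbq1a*, *Hbq1b*, *Hbb-bh1*, *Hbb-y* and *Beta-s* kept their direction, with differences of 5.63 to 6.78 for *Hba-x*, 0.91 to 1.35 for *Hbb-bh1* and 0.21 to 1.07 for *Hbb-y*. Genes at or near 0 in WT moved with the pseudocount: *Hbq1a* was 0.94 at 1, 3.93 at 0.05 and 3.81 with limma-voom, and *Hbq1b* 2.03, 5.30 and 5.51. The 386 genes past the threshold became 187 with WT of the same Cre line, 217 without the 2 libraries of highest visceral endoderm markers, and 262 to 438 leaving out 1 library. The number of list genes past it, 4, became 2 with no filter, 2 with WT of the same Cre line, 2 without those 2 libraries, and 2 (without Tie2-Ezh2-KO replicate 7 or 11) to 7 (without replicate 9) leaving out 1 library. These are not always the same genes: the 7 hold 3 of the 4 and not *Gp1ba*. In Vav-Ezh2-KO 0 globins passed in any of 18 alternatives with limma, where 0 of 4 also had an unadjusted p under 0.05 as reported and 0 with limma-voom. The 1 gene past the threshold there became 2 with WT of the same Cre line, 0 with limma-voom and 1 to 2 leaving out 1 library (2 without Tie2-Ezh2-WT replicate 10 or 12 or Vav-Ezh2-WT replicate 4), and the list genes 1 with WT of the same Cre line. Signs changed there for *Hbb-bh1* (0.31) and *Hbb-y* (-0.37) with WT of the same Cre line, and for *Ezh2* with median scaling (0.03) and quantile normalization (0.00). Leaving out 1 library gave -0.18 (without Vav-Ezh2-KO replicate 28) to 0.52 for *Hbq1b*, -0.32 to 0.10 (without Vav-Ezh2-KO replicate 10) for *Hbb-bh1*, -0.07 (without Vav-Ezh2-KO replicate 9) to 0.26 for *Beta-s* and -0.10 to 0.02 for *Ezh2* (above 0 without Vav-Ezh2-WT replicate 4 or 6 or Vav-Ezh2-KO replicate 1 or 28). With the other β-like genes in the sum, the *Hbb-bh1* share was 89.5% in Tie2-Ezh2-KO, 82.9% in Vav-Ezh2-KO and 85.3% in WT. Fewer libraries and other controls are part of these alternatives, and otherwise the cause was not tested. Few reads limit *Hbq1a*, *Hbq1b* and *Hbb-b1*, with 2, 6 and 0 reads in all of WT.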
